A study of Danio rerio with 4 samples.

Results

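Smooth muscle cells that express myh11a were selected in single-cell RNA sequencing counts of zebrafish ventricles. They numbered 232 of 29665 barcodes that passed quality limits in 4 libraries. A barcode, which stands for 1 droplet and ideally 1 cell, was a member if it had at least 2500 UMIs (unique molecular identifiers, which count RNA molecules), at least 600 genes and at most 12% mitochondrial UMIs. It also had at least 8 UMIs of acta2, tagln and myh11a together with at least 1 of myh11a, fewer than 3 UMIs of ttn.1, ttn.2 and myh7l together, and no UMI of cdh5, spock3, aqp8a.1 or f8. These genes chose the members, so their levels are a description and support nothing.

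The study followed coronary vessel growth in wild-type ventricles at 4 stages, with 1 library per stage. Initiation was a pool of 25 ventricles from fish of 10 mm and 1.5 months. Establishment was a pool of 18 ventricles at 14 mm and 2 months, expansion a pool of 12 at 18 mm and 2.5 months, and maturation a pool of 5 at 28 mm and 8 months. A stage therefore differs from another in library, pool, dissociation and age at once, and these cannot be told apart. With 1 library per stage there is no replicate and no test between stages. Intervals at 95% cover counting error only.

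Smooth muscle cells wrap arteries and set their width. Their contraction rests on smooth muscle actin (acta2), the heavy chain of smooth muscle myosin (myh11a) and actin-binding proteins such as transgelin (tagln), calponin, caldesmon and leiomodin. Myocardin, a partner of serum response factor, switches these genes on. Calcium entering through membrane channels starts contraction, and cyclic GMP made in response to nitric oxide relaxes the cell. Smooth muscle of large arteries also lays down elastic fibres of elastin, fibulins and the enzymes that cross-link them. In the teleost heart such elastic smooth muscle fills the bulbus arteriosus, the chamber at the outflow of the ventricle, while coronary arteries carry their own mural cells. The samples are labelled as ventricles, and whether outflow tissue came with them is not stated in the sources used here, so the anatomical origin of the members cannot be told.

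The libraries held between 115624753 UMIs at initiation and 161798583 at maturation. Smooth muscle cells made up 93 of 6648 passing barcodes at initiation, or 1.40% (Clopper-Pearson interval 1.13 to 1.71%). The establishment library had 28 of 5781 (0.484%, 0.322 to 0.699%), the expansion library 81 of 10917 (0.742%, 0.590 to 0.921%) and the maturation library 30 of 6319 (0.475%, 0.321 to 0.677%). The interval at initiation lies above the other 3, and those of establishment, expansion and maturation overlap. Red blood cells, taken as barcodes with at least 20% globin UMIs, were 57.4% of passing barcodes in the initiation library, 28.3% in that of establishment, 1.46% in that of expansion and 0.332% in that of maturation. Without them the shares of smooth muscle cells were 3.14%, 0.651%, 0.744% and 0.476% in the same order of stages, highest at initiation with and without them.

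**Figure D1:**
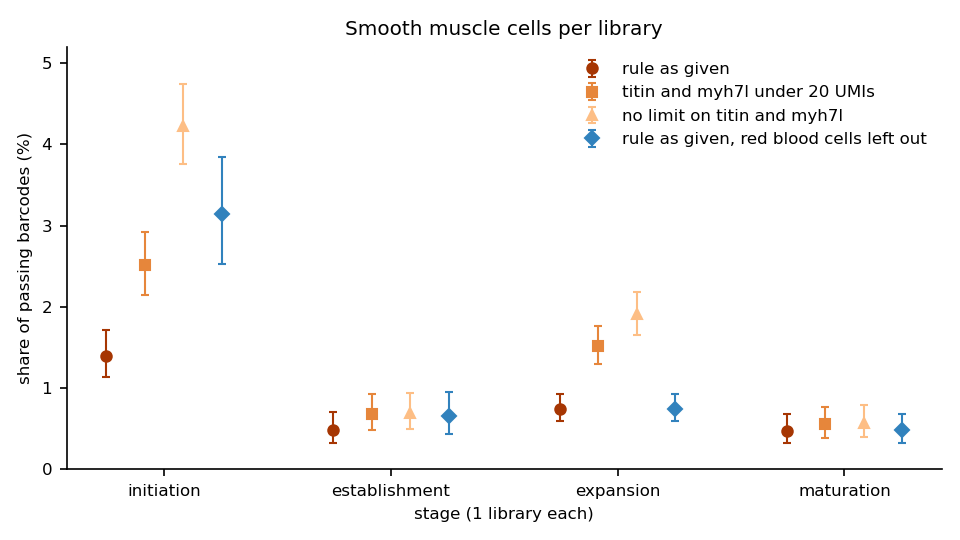
Share of passing barcodes (%) that were smooth muscle cells in the initiation, establishment, expansion and maturation libraries, by the rule as given, with under 20 UMIs of titin and myh7l, with no such limit, and by the rule as given without red blood cells, with 95% Clopper-Pearson intervals. The initiation share is 1.40% with red blood cells in the denominator and 3.14% without them, and the highest of the other 3 stages is expansion, at 0.742% and 0.744%.

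The limits of the rule bear on these shares. Passing barcodes that met the gate of acta2, tagln and myh11a numbered 358, 73, 421 and 78, from the initiation to the maturation library. The limit on titin and myh7l, genes of the striated sarcomere, removed 234, 28, 258 and 14 of them, and the limit on endothelial genes a further 31, 17, 82 and 34. At initiation, 74 of the removed barcodes had 3 to 19 UMIs of the titin and myh7l genes and no endothelial UMI. The titin gene ttn.2 stood at 14.0 CPM (UMIs per 1000000 UMIs, summed over a group) in members and 704 CPM in these barcodes. The cardiomyocyte gene myl7, a myosin light chain, stood at 54.8 CPM in members and 53.0 CPM in these barcodes, and cardiac troponin T (tnnt2a) at 34.4 and 39.4 CPM. At initiation such barcodes carried titin UMIs without more myl7 than the members had, and the smooth muscle gene lmod1b stood at 243 CPM in members, against 389 CPM in these barcodes. Another 114 barcodes at initiation had 20 or more of these UMIs, and there myl7 reached 1142 CPM. At expansion members had 1516 CPM of myl7 and 38.3 CPM of ttn.2, against 1029 and 884 CPM in the 85 barcodes with 3 to 19 such UMIs. Establishment and maturation went the other way, with 1024 CPM of myl7 in members and 2142 CPM in the 11 such barcodes at establishment, and 2563 and 10628 CPM in members and the 5 such barcodes at maturation. Cardiomyocyte barcodes, picked by at least 10 UMIs of titin and myh7l with no endothelial UMI, had 27337 CPM of myl7 at expansion and 14729 CPM at initiation. Whether the removed barcodes are smooth muscle cells was not tested. Without the titin limit the shares would be 1.91% at expansion and 4.23% at initiation.

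**Figure D2:**
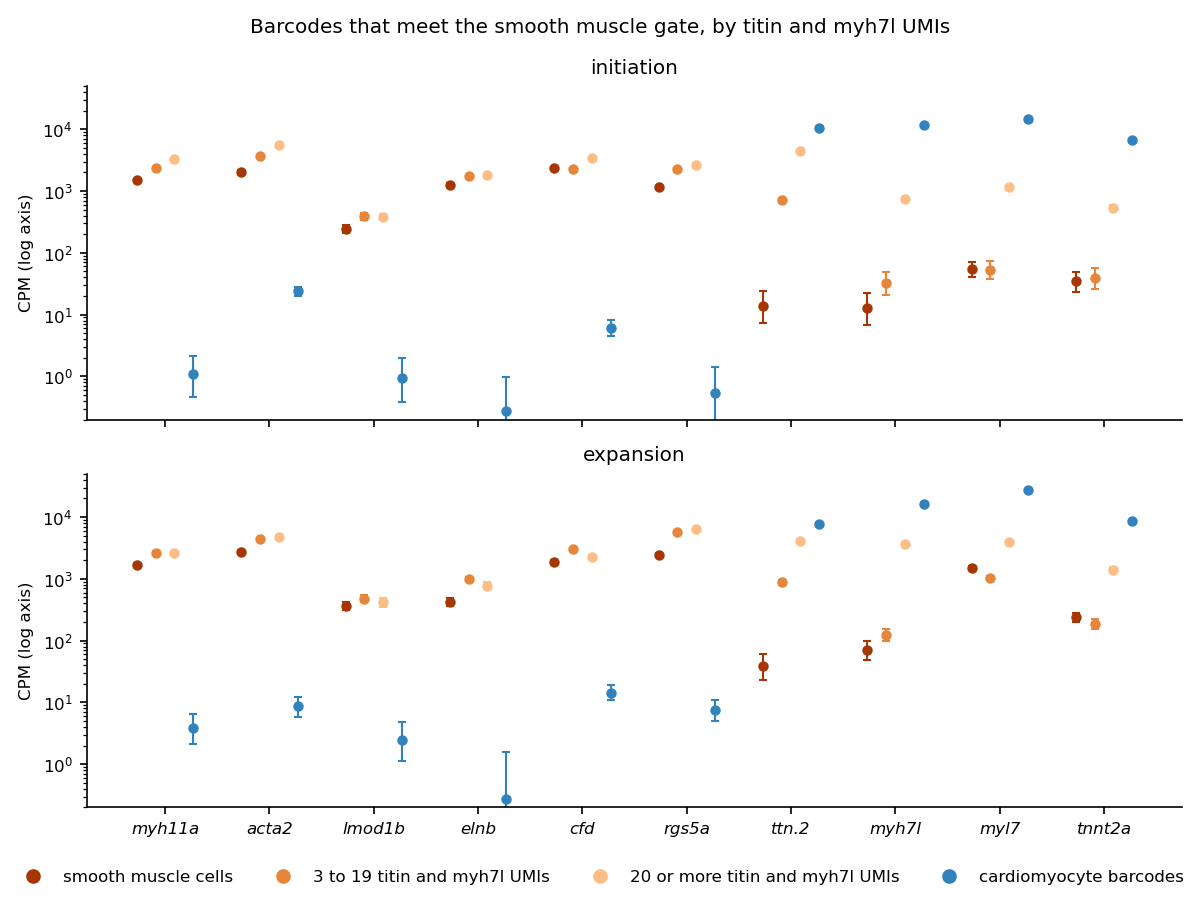
Levels (CPM, log axis) of titin, cardiomyocyte and smooth muscle genes at initiation and expansion in smooth muscle cells, in gate-positive barcodes with 3 to 19 and with 20 or more UMIs of ttn.1, ttn.2 and myh7l, and in cardiomyocyte barcodes, with 95% Poisson intervals. At initiation the members had 54.8 CPM of myl7, beside 53.0 CPM in the barcodes with 3 to 19 such UMIs and 14729 CPM in cardiomyocytes.

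Few members lay near the threshold of the gate. Members with 8 or 9 gate UMIs, just inside, numbered 6, 1, 5 and 8 in the order of stages. Barcodes with 6 or 7, just outside and otherwise within the rule, numbered 3, 2, 12 and 13. At maturation, 8 of 30 members lay just inside, and these 8 held no UMI of tpm2. The median of gate UMIs per member was 36, 48.5, 27 and 18.5. Free RNA in the droplet was measured in barcodes of 10 to 100 UMIs. A member of median depth, were it free RNA throughout, would hold about 1.51, 0.681, 1.29 and 0.132 gate UMIs, below 8. The endothelial genes of the rule summed to 459, 835, 3018 and 1675 CPM in free RNA. Barcodes dropped by the endothelial limit alone had medians of 12836, 14221, 8799.5 and 9462.5 UMIs, against 8849, 8105.5, 5725 and 4909 UMIs in members. Whether free RNA moved barcodes past that limit was not tested. Members shared a barcode sequence with a passing barcode of another library in 2, 0, 1 and 0 cases.

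Tropomyosin 2 (tpm2), a filament gene that the rule did not use, was given beside the gate genes as a marker of these cells. It stood at 418 CPM at initiation, 244 CPM at establishment, 593 CPM at expansion and 210 CPM at maturation in members, against 25.6, 8.63, 38.6 and 14.8 CPM in other passing barcodes. Other passing barcodes, here and below, are all that passed and were not members. They include the barcodes that met the gate and were removed by the other limits. A contrast with them is therefore not one with other cell types alone. In members, tpm2 was seen in 73 of 93, 21 of 28, 62 of 81 and 9 of 30. With every barcode thinned to 2500 UMIs, a tpm2 UMI was found in 51.6%, 32.1%, 64.2% and 26.7% of members, against 1.69%, 1.51%, 2.66% and 3.01% of endothelial barcodes. Members of every stage held tpm2 above the level of endothelial barcodes. Those were picked with under 8 gate UMIs, so the contrast is a description and cannot check the label. At maturation tpm2 was found in a minority of members. The members at maturation were shallower, with a median of 4909 UMIs, than those at initiation (8849), establishment (8105.5) and expansion (5725). Their median share of mitochondrial UMIs was 7.31%, against 0.99% at initiation, 1.31% at establishment and 3.12% at expansion.

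Of 3916 genes with at least 50 UMIs in members, 207, or 5.29%, were at least 2-fold higher in members than in other passing barcodes in all 4 libraries. The rule chose the members by this contrast, so the counts are given with no reading. The contractile list had 14 of 31 measured genes past this limit, and the pericyte markers 6 of 6. The elastic matrix had 4 of 15, smooth muscle transcription regulators 4 of 23, nitric oxide and cyclic nucleotide signalling 2 of 6, the Notch pathway 2 of 6, ion channels and calcium handling 3 of 11 and growth factor genes 3 of 18. Collagens had 0 of 22, fibroblast markers 0 of 9 and cardiomyocyte markers 0 of 6.

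Genes outside the rule with the highest least ratio over the 4 libraries included 5 filament genes among the 15 named. They were led by si:ch211-10a23.2, which was at least 30.2 times its level in other barcodes in every library. Next came leiomodin 1 (lmod1b, 23.3 times), which builds actin filaments, and the tropomyosins tpm4b (18.9 times) and tpm1 (16.8 times). The transmembrane glycoprotein endosialin (cd248a), known from pericytes and stromal cells of mammals, was at least 17.3 times as high. The G protein regulator rgs5a, a marker of mural cells, reached 13.2 times, the magnesium transport gene cnnm2a 13.0 times and smoothelin (smtna) 11.5 times. The remaining genes of the 15 named were kng1, si:dkey-57k2.6, klhdc8b, tpm2, BX323087.1, BX088707.3 and ptprq, between 12.0 and 16.1 times.

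The gate genes themselves varied among stages. Smooth muscle actin acta2 stood at 2061 CPM at initiation, 5268 CPM at establishment, 2769 CPM at expansion and 1563 CPM at maturation. The myosin gene myh11a stood at 1506, 906, 1681 and 2218 CPM, and tagln at 815, 1869, 1169 and 1458 CPM. The order of stages was thus not shared: acta2 was highest at establishment and myh11a at maturation. With no titin limit acta2 was still highest at establishment, at 6068 CPM, and myh11a was highest at initiation, at 2446 CPM, beside 2298 CPM at expansion and 2167 CPM at maturation. In single members at maturation myh11a ran between 314 and 7248 CPM with a median of 2119 CPM, and at initiation between 122 and 4864 CPM with a median of 1514 CPM. The ranges of single cells overlapped between these stages.

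Among contractile genes outside the rule, calponin 1 (cnn1b), an actin-binding inhibitor of myosin, stood at 810 CPM at initiation, 427 CPM at establishment, 836 CPM at expansion and 222 CPM at maturation. Filamin A (flna), a cross-linker of actin, had 1073, 593, 1002 and 309 CPM. Caldesmon (cald1a), which blocks myosin on the thin filament until calcium enters, had 72.0, 47.9, 125 and 1618 CPM. At maturation cnn1b was lower and cald1a higher, while the other caldesmon gene, cald1b, had no UMI in members. The maturation level of cnn1b was 3.64-fold below initiation (interval 2.61 to 5.24), and that of cald1a was 22.5 times initiation (17.1 to 29.9). Both moved with the rule. With no titin limit cnn1b was 7.03-fold lower, and cald1a was 9.58 times initiation with a gate of 5 UMIs, 46.0 times with a gate of 16 and 44.1 times with no titin limit. Myocardin (myocd) stood at 226, 257, 326 and 191 CPM and serum response factor (srfa) at 135, 87.1, 111 and 148 CPM. For myocd the Poisson intervals at maturation (130 to 272) and initiation (196 to 258) overlapped.

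Relative to initiation, most measured genes were somewhat lower in members at establishment and maturation. The median log2 ratio over measured genes was -0.71 for establishment, -0.05 for expansion and -0.52 for maturation. In other passing barcodes without red blood cells, the same genes had medians of -0.63, -0.06 and -0.43. The shifts were close to those of other cells of the same libraries, and the counts of each list are read beside them. Of 3343 genes with at least 50 UMIs in the 2 groups of members, expansion over initiation had 169 at least 2-fold higher (5.06%) and 213 at least 2-fold lower (6.37%). Of 2723 genes, maturation over initiation had 363 higher (13.3%) and 990 lower (36.4%). Of 2695 genes, establishment over initiation had 132 higher (4.90%) and 1080 lower (40.1%). The 28 members at establishment and the 30 at maturation held 229512 and 161891 UMIs in all, against 930976 in the 93 members at initiation. Many genes at establishment and maturation thus rested on few UMIs. Genes high at initiation also met the minimum of 50 UMIs more easily, which favours counts of lower genes. How far it does was not tested.

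Elastic matrix genes were mostly lower at maturation. Of 14 measured genes of the list, 12 were at least 2-fold lower than at initiation and 1 higher, with a median log2 ratio of -2.81, against 36.4% lower and a median of -0.52 over all genes. At expansion 3 of 15 were lower and none higher, against 6.37% and 5.06% over all genes. At establishment 8 of 14 were lower and none higher, against 40.1% and 4.90% over all genes. Elastin b (elnb), the core protein of the elastic fibre, stood at 1266 CPM at initiation (interval 1195 to 1341), 109 CPM at establishment (70.5 to 161), 421 CPM at expansion (366 to 482) and 18.5 CPM at maturation (3.82 to 54.2). The intervals of the 4 stages do not overlap. Other passing barcodes, which include red blood cells and the gate-positive barcodes removed by the rule, had 52.0, 1.26, 34.8 and 5.07 CPM. Without red blood cells, their log2 ratio of maturation over initiation for elnb was -4.82, against -6.09 in members. At initiation the groups of removed barcodes had between 819 and 1825.5 CPM of elnb. The level at expansion was 3.01-fold below initiation (2.59 to 3.50). That at maturation, from 3 UMIs in 2 members, was 68.3-fold below (23.3 to 332). It was 35.5-fold below with up to 1 endothelial UMI and 107-fold below with no titin limit. The titin limit of the rule moved these levels, and without it elnb had 739 CPM at expansion and 1616 CPM at initiation. The endothelial limit was not lifted in full, so these folds do not bound its effect. At maturation the 34 gate-positive barcodes removed by the endothelial limit alone had 154 CPM of elnb, above the level in members. How many elastic matrix genes would be lower with these barcodes included was not tested.

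Members differed among themselves in elnb. In the order of stages, a UMI was seen in 74 of 93, 11 of 28, 54 of 81 and 2 of 30 members. At 2500 UMIs per barcode the shares were 66.7% (56.1 to 76.1%), 14.3% (4.03 to 32.7%), 46.9% (35.7 to 58.3%) and 0 of 30, which allows up to 11.6%, against 0.156 to 0.355% of endothelial barcodes. The median member at initiation had 802 CPM and the highest 17123 CPM. At initiation the members with an elnb UMI after thinning had 800 CPM of pi15a, which encodes a secreted peptidase inhibitor, and those without had 133 CPM. They had 261 CPM of myocd, against 136 CPM in those without, while myh11a was alike, at 1496 and 1531 CPM. These relations differed at other stages. At expansion pi15a had 17.3 CPM in members with elnb and 79.2 CPM in those without, and myh11a 2013 and 1392 CPM, and at establishment myocd had 172 and 282 CPM. The part of depth in this was not tested. The median depths at initiation were 9642 and 7800 UMIs.

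Fibulin 5 (fbln5), which guides elastin onto microfibrils, had 367 CPM at initiation, 370 CPM at establishment, 157 CPM at expansion and 24.7 CPM at maturation. Aggrecan (acana), a large cartilage and arterial proteoglycan, had 565, 301, 645 and 0 CPM, and the cross-linking enzyme loxl1 156, 100, 214 and 0 CPM. With no UMI at maturation, and a floor of 3 UMIs (18.5 CPM) in its place, acana was 30.5-fold lower and loxl1 8.40-fold lower than at initiation. These folds are set by the floor and are not bounds. The intervals of the ratio of maturation over initiation reached 0.0405 for acana and 0.148 for loxl1. Expansion was close to initiation for acana and loxl1, and lower for elnb and fbln5. The microfibril gene mfap5 was the exception at maturation, with 272 CPM, against 134 CPM at initiation, a ratio of 2.02 (1.40 to 2.88).

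Complement factor D (cfd), a secreted serine protease of the alternative complement pathway, followed the same pattern at maturation. It stood at 2386 CPM at initiation, 2431 CPM at establishment and 1907 CPM at expansion, and no UMI was found in the 30 members at maturation, which is at least 129-fold below initiation. It was seen in 84 of 93, 23 of 28, 58 of 81 and 0 of 30 members. Other passing barcodes had 118, 137, 282 and 158 CPM and free RNA 87.8, 75.3, 226 and 78.6 CPM, so the gene was still present in the library at maturation. The absence depends on the limits of the rule. With a gate of 5 UMIs in place of 8, the 50 barcodes at maturation had 40.7 CPM of cfd. The 34 maturation barcodes that met the gate but held an endothelial UMI had 1425 CPM of cfd and 154 CPM of elnb, in cells of a median of 9462.5 UMIs. With up to 1 endothelial UMI allowed, 35 barcodes remained at maturation, with 0 CPM of cfd and 37.4 CPM of elnb.

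**Figure D3:**
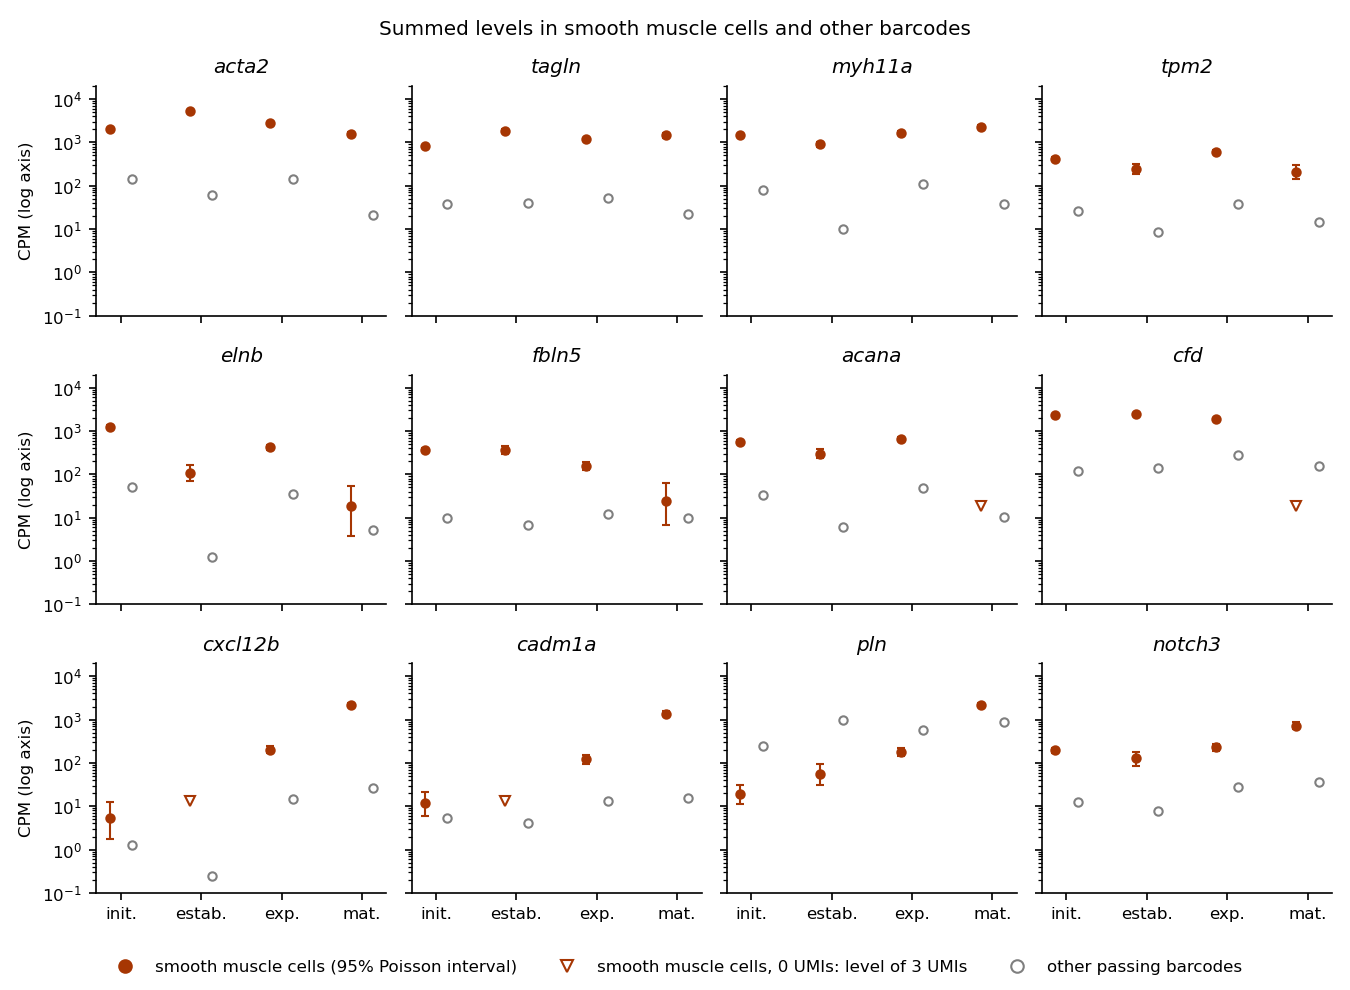
Summed levels (CPM, log axis) of named genes in smooth muscle cells with 95% Poisson intervals (open triangles, at the level of 3 UMIs, stand for no UMI), and in other passing barcodes of the same libraries, at initiation, establishment, expansion and maturation. elnb and cfd stand at 18.5 and 0 CPM at maturation, against 1266 and 2386 CPM at initiation, while cxcl12b, cadm1a and pln are highest at maturation, at 2125, 1371 and 2143 CPM.

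A different set of genes was high at maturation. The chemokine cxcl12b, a ligand of Cxcr4 receptors, stood at 5.37 CPM at initiation, 0 CPM at establishment, 204 CPM at expansion and 2125 CPM at maturation, against 1.27, 0.241, 14.6 and 26.8 CPM in other passing barcodes. The adhesion molecule cadm1a had 11.8, 0, 121 and 1371 CPM in members. Phospholamban (pln), which restrains the calcium pump of the sarcoplasmic reticulum, had 19.3, 56.6, 177 and 2143 CPM. Maturation was 396 times initiation for cxcl12b (168 to 1226), 116 times for cadm1a (63.6 to 236) and 111 times for pln (69.1 to 189). The levels at initiation rest on 5 to 18 UMIs, and the ratios moved with the rule. For cadm1a and pln they moved beyond these counting intervals. The ratio of cadm1a was 23.0 with a gate of 5 UMIs, and that of pln 33.8 with no titin limit and 206 with a minimum of 5000 UMIs. For cxcl12b the ratio was 239 with under 20 UMIs of titin and myh7l, within its interval. At maturation the 34 gate-positive barcodes removed by the endothelial limit alone had 563 CPM of cxcl12b and 581 CPM of pln. Both were below the levels in members. The endothelial limit was not lifted in full, so these ratios do not bound its effect. The log2 ratios of cxcl12b, cadm1a and pln were 8.63, 6.86 and 6.79 in members. In other passing barcodes without red blood cells they were 3.11, 0.12 and 0.41. Members with a cxcl12b UMI numbered 2 of 93, 0 of 28, 9 of 81 and 18 of 30, and at 2500 UMIs per barcode the share at maturation was 56.7%, against 2.37% of endothelial barcodes. Pericyte-like barcodes, picked by at least 5 UMIs of pericyte genes and under 8 gate UMIs, had 19.6 CPM of cxcl12b at maturation, and free RNA had 6.24 CPM.

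Cardiomyocytes also express pln, so its level was set beside free RNA. At maturation members had 310% of the pln level of free RNA, 2143 against 692 CPM, but 13.4% of its myl7 level, 2563 against 19161 CPM. Cardiomyocyte barcodes had 5568 CPM of pln and 48623 CPM of myl7. At expansion members had 29.5% of the free RNA level of pln and 9.91% of that of myl7. The summed level of pln in members was thus above free RNA at maturation and below it in the other 3 libraries.

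**Figure D4:**
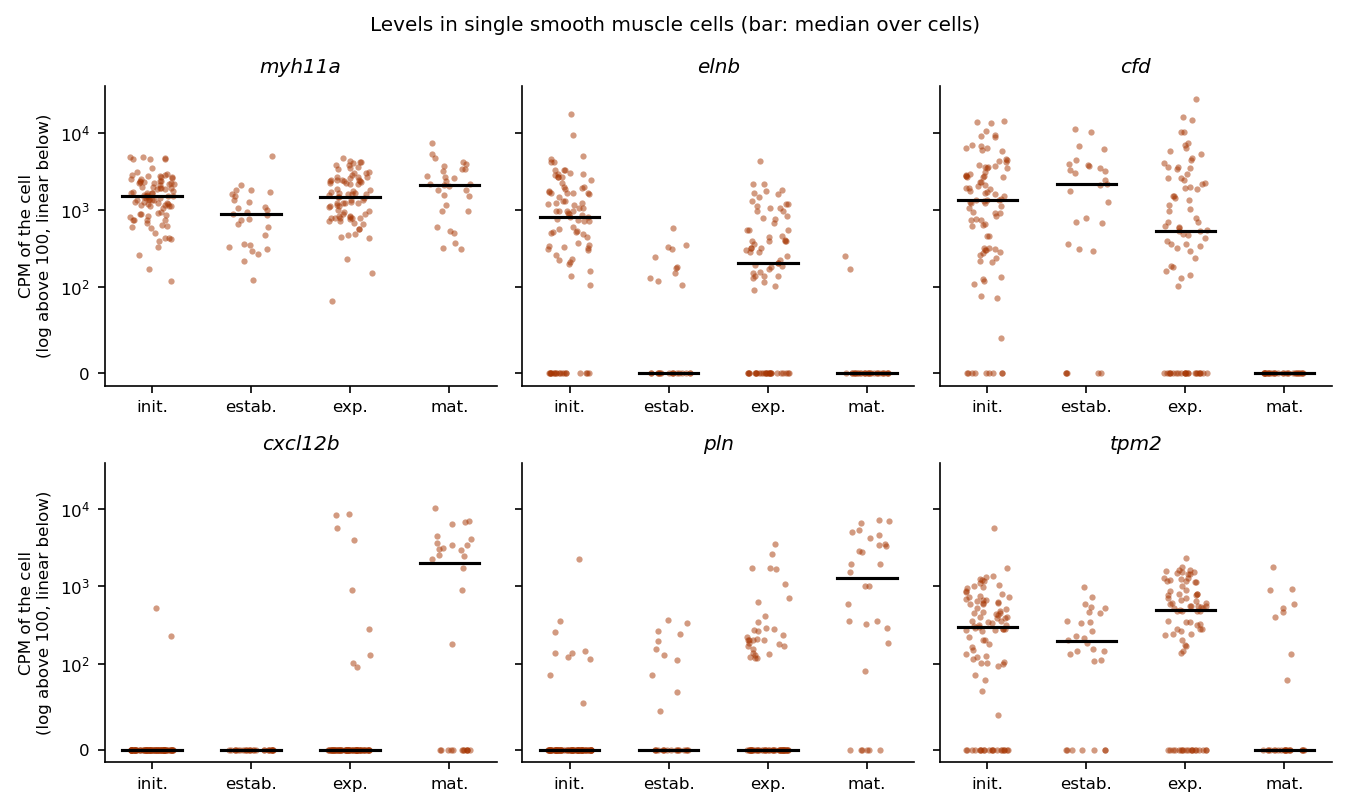
Levels in single smooth muscle cells (CPM of the cell, log above 100 and linear below) by stage, with a bar at the median over cells. At maturation the median for cxcl12b is 2002 CPM and that for elnb 0 CPM, against 0 CPM for cxcl12b and 802 CPM for elnb at initiation.

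The members at maturation were uneven. The 18 with a cxcl12b UMI were set beside the 12 without, a split chosen after the values were seen. Those with it had 349 CPM of tpm2, against 14.8 CPM in those without, and 338 CPM of lmod1b, against 14.8 CPM. These filament genes, each with 1 UMI in the members without cxcl12b, lay mostly in the members with it. The gate gene acta2, which is part of the rule and is given as a description, had 2581 CPM, against 134 CPM. Adhesion gene cadm1a had 2348 CPM in members with cxcl12b and no UMI in those without, and pln 3543 CPM, against 178 CPM. Notch3 (notch3), a receptor of mural cells, had 1121 CPM, against 178 CPM, and the potassium channel subunit kcne4 1269 CPM, against 148 CPM. Not every gene followed the split. Platelet-derived growth factor receptor beta (pdgfrb) had 941 CPM in members with cxcl12b and 1039 CPM in those without, with overlapping intervals. Of other pericyte markers, rgs5a had 455 CPM, against 505 CPM in those without, and cspg4 212 CPM, against 312 CPM. The filament gene smtnb had 212 CPM, against 208 CPM, and the kinase gene prkg1b 1745 CPM, against 1440 CPM. The intervals of each of these genes overlapped as well. The 12 members without cxcl12b had a median of 3893.5 UMIs, against 5065.5 UMIs in those with it, and myh11a at 1336 CPM, against 2845 CPM. They met the gate largely through myh11a and tagln, and for them the smooth muscle label rests on few contractile genes. Among those present were cald1a, at 787 CPM, against 2211 CPM in members with cxcl12b, and smtnb.

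At expansion 9 of 81 members had a cxcl12b UMI. They had 1172 CPM of cadm1a (890 to 1515), against 4.48 CPM (0.542 to 16.2) in the 72 without. They had 728 CPM of pln, against 116 CPM, 1213 CPM of kcne4, against 226 CPM, and 869 CPM of cald1a, against 42.5 CPM. Only 4 of these 9 carried cadm1a, and a single member held 38.3% of the cadm1a UMIs of all members at expansion. The secreted protein gene crispld2 ran the other way, with 40.4 CPM, against 184 CPM in the others, while at maturation it had 1312 CPM, against 193 CPM. The 9 also had 1374 CPM of cfd, against 1966 CPM in the others. Of the 9, 5 had an elnb UMI, and their elnb level of 364 CPM (216 to 575) overlapped that of the others, 428 CPM (369 to 493). Their depth was lower, at a median of 4089 UMIs, against 5839 UMIs in the others. With a minimum of 5000 UMIs per barcode the cxcl12b level at expansion was 7.84 CPM, in place of 204 CPM. The cadm1a level at expansion was then 0 CPM, in place of 121 CPM, and at maturation cxcl12b had 1583 CPM, in place of 2125 CPM.

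Cyclic nucleotide and calcium genes were among those higher at maturation. In the list of nitric oxide and cyclic nucleotide signalling, 4 of 5 measured genes were at least 2-fold higher than at initiation and none lower. Over all genes 13.3% were higher and 36.4% lower. They were the kinase gene prkg1b and the phosphodiesterases pde5ab, pde4d and pde3a. The cyclic GMP-dependent kinase prkg1b stood at 187 CPM at initiation, 13.1 CPM at establishment, 224 CPM at expansion and 1618 CPM at maturation. The phosphodiesterase pde5ab, which breaks down cyclic GMP, had 25.8, 26.1, 94.7 and 253 CPM. Maturation was 8.66 times initiation for prkg1b (7.12 to 10.5), with 32.4% of its UMIs at maturation in 1 member, and 9.82 times for pde5ab, which rested on 24 UMIs at initiation. Of ion channel and calcium genes, 5 of 10 were higher and 2 lower, against 13.3% and 36.4% of all genes. The calcium channel subunit cacnb2a had 112, 52.3, 139 and 717 CPM, and the pore-forming subunit cacna1c 189, 69.7, 202 and 500 CPM. The receptor-operated channel trpc6a went the other way, with 24.7 CPM, from 4 UMIs, at maturation, against 173 CPM at initiation. Endothelin receptor A (ednraa), which drives contraction, had 140, 69.7, 151 and 402 CPM. The alpha-1 adrenergic receptor adra1d had 1 UMI at maturation, which is 6.18 CPM, beside 72.0 CPM at initiation.

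Notch and pericyte genes changed unevenly. Of 5 measured Notch pathway genes at maturation, 4 were at least 2-fold higher and 1 lower, against 13.3% and 36.4% of all genes. The receptor notch3 stood at 195 CPM at initiation, 126 CPM at establishment, 230 CPM at expansion and 729 CPM at maturation, and notch1a at 7.52, 0, 30.2 and 352 CPM. The receptor notch2 had 172, 61.0, 133 and 55.6 CPM. At maturation notch3 was 3.73 times initiation (2.93 to 4.73), and notch2 was lower. Of 6 pericyte markers, 3 were higher at maturation (rgs5b, notch3, kcne4) and 2 lower (cspg4, rgs5a), against the same shares of all genes, so that the count lower was near the background. The G protein regulator rgs5a had 1145, 1677, 2437 and 476 CPM, and the proteoglycan NG2 (cspg4) 941, 335, 796 and 253 CPM. Platelet-derived growth factor receptor pdgfrb had 841, 357, 736 and 982 CPM, and in pericyte-like barcodes 750, 508, 925 and 942 CPM. Pericyte-like barcodes were picked by pericyte genes that include pdgfrb and by under 8 gate UMIs, so these levels are a description. The filament gene lmod1b had 243, 318, 363 and 204 CPM in members, against 8.54, 7.83, 9.97 and 0.302 CPM in pericyte-like barcodes. A UMI of pdgfrb, notch3 or kcne4 was found at 2500 UMIs per barcode in 86.0% of members at initiation, in 14 of 28 at establishment, and in 79.0% and 76.7% at expansion and maturation, against 14.4 to 20.6% of endothelial barcodes.

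Transcription regulators of smooth muscle and its lineages split at maturation, with 4 of 20 higher and 6 lower, against 13.3% and 36.4% of all genes. The share lower was near that of all genes. The T-box factor tbx20, active in the heart, had 129 CPM at initiation, 78.4 CPM at establishment, 226 CPM at expansion and no UMI at maturation, at least 6.96-fold lower than initiation. The factor sox9a, known from valve and cartilage lineages, had 169, 148, 123 and 0 CPM, at least 9.10-fold lower. Forkhead factor foxc1b had 146, 179, 202 and 18.5 CPM. Higher were mef2ca, a myogenic factor, with 120, 21.8, 103 and 432 CPM, and zeb2a with 117, 43.6, 119 and 383 CPM. At expansion none of 22 regulators was past 2-fold in either direction, against 5.06% higher and 6.37% lower over all genes. At those shares few of 22 genes would be past it.

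Most contractile genes were within 2-fold of initiation at each later stage. At expansion 4 of 31 were higher than at initiation (cald1b, hspb1, fhl1a, actn1) and none lower, against 5.06% higher and 6.37% lower over all genes, with a median log2 ratio of 0.43, against -0.05. At establishment 4 of 29 were higher and 6 lower, against 4.90% and 40.1% of all genes. At maturation 4 of 30 were higher and 10 lower, near the 13.3% and 36.4% of all genes. Alpha-actinin 1 (actn1) had 110 CPM at initiation, 87.1 CPM at establishment, 232 CPM at expansion and 507 CPM at maturation. Smoothelin smtna had 95.6, 157, 165 and 18.5 CPM, and its relative smtnb 9.67, 0, 4.03 and 210 CPM. The paralogs had opposite orders at initiation and maturation. How well the counting tells such pairs apart was not tested.

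Collagens and stromal matrix had 8 of 21 genes higher and 6 lower at maturation, against 13.3% and 36.4% of all genes. The basement membrane collagens col4a1 and col4a2 had 39.7 and 10.7 CPM at initiation, 61.0 and 21.8 CPM at establishment, 141 and 58.4 CPM at expansion, and 754 and 377 CPM at maturation. Endothelial barcodes had 591 CPM of col4a1 at maturation, and 486, 351 and 595 CPM at the earlier stages. The matricellular gene cyr61, a target of Yap, had 2768, 1686, 2771 and 266 CPM, and fibronectin fn1a 238, 82.8, 127 and 37.1 CPM. At maturation cyr61 was 10.4-fold below initiation (7.71 to 14.4), and the intervals of initiation and expansion overlapped. In the TGF-beta list 1 of 10 genes was higher and 5 lower at maturation. The ligand tgfb2 had 545, 183, 453 and 124 CPM. Of 14 growth factor genes 4 were higher and 5 lower. Among them angiopoietin 1 (angpt1), a ligand of the endothelial Tie2 receptor, had 82.7, 13.1, 82.6 and 259 CPM, and the insulin-like growth factor igf2b 259, 274, 226 and 18.5 CPM.

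**Figure D5:**
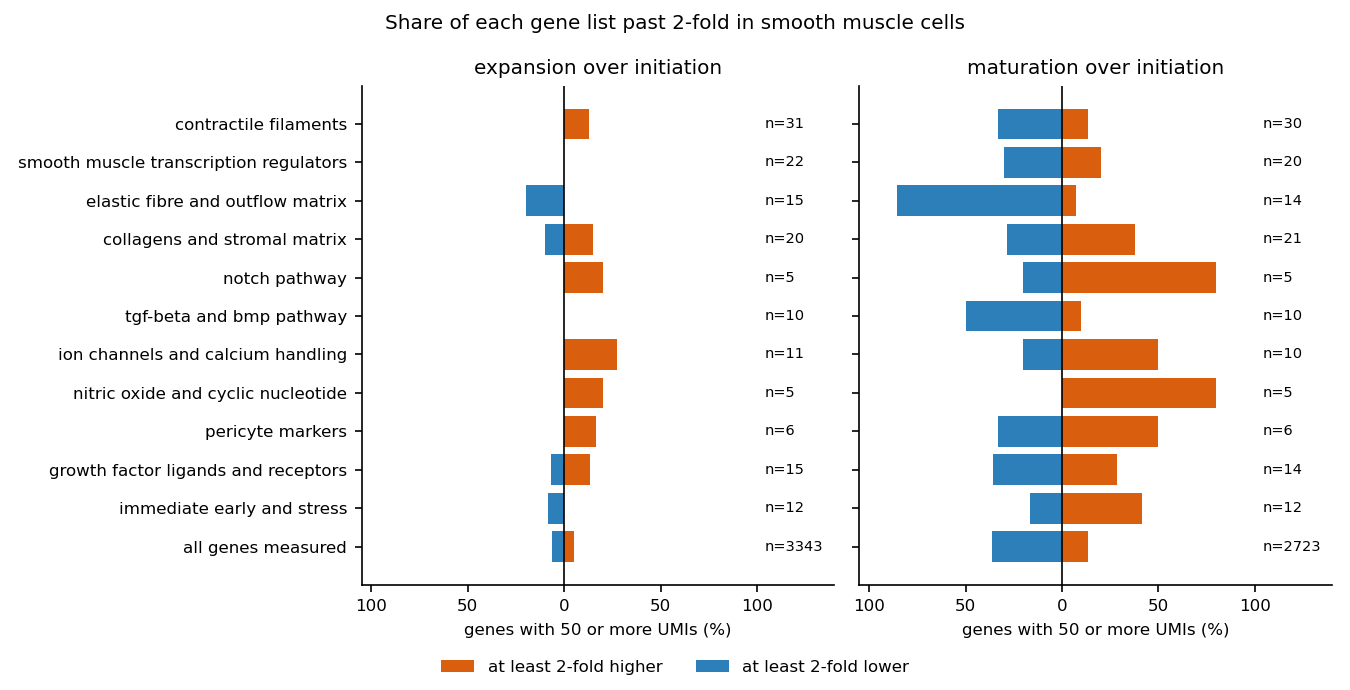
Share of measured genes (%) of each gene list that were at least 2-fold higher or at least 2-fold lower in smooth muscle cells at expansion and maturation over initiation, with all measured genes as the background. At maturation 12 of 14 elastic matrix genes are lower, against 36.4% of all genes, and 4 of 5 genes each of the Notch list and the nitric oxide list are higher, against 13.3%.

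Genes with the lowest ratios of expansion over initiation were partly of red blood cells. Embryonic globins hbbe1.1, hbae1.1 and hbae1.3 had no UMI at expansion, and tfr1a, the transferrin receptor, had 8.06 CPM, against 131 CPM at initiation. Beyond these, pi15a had 50.4 CPM, against 611 CPM, and the metalloprotease ADAMTS7 24.2 CPM, against 235 CPM, 9.73-fold lower (5.46 to 19.1). The log2 ratio of ADAMTS7 was -3.28 in members and -1.14 in other barcodes without red blood cells. That of pi15a was -3.60 in members and -2.34 in those other barcodes. The remaining genes, cyp1a, si:dkey-203a12.9, adra1aa and igfbp1a, had no UMI at expansion. In that order their log2 ratios were -3.76, -3.34, -3.29 and -3.21 in members. In other barcodes without red blood cells they were -1.54, 0.29, 0.24 and -3.30. In each of these 4, a single member held between 53.8 and 74.5% of the UMIs at initiation. Of the 10 with the highest ratios, cxcl12b had 204 CPM, against 5.37 CPM at initiation, 33.7% of it in a single member. Another 4 were muscle genes, mb, cmlc1, myl7 and acta1b, with log2 ratios of 4.66 to 5.37. Single members also weighed on zgc:153704 and hspb11, with 49.7% and 65.5% of the UMIs at expansion. The fatty acid-binding gene fabp11a, with 119 CPM at expansion and 3.22 CPM at initiation, stood at 6.80% of its level in free RNA. The other 2 were gapdh (244 CPM, against 5.37 CPM) and LOC110439915 (96.7 CPM, against 8.59 CPM).

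At maturation the 5 lowest ratios were those of the globins hbaa1 and hbba1, of si:ch211-5k11.8, and of cfd and elnb. The 5 highest were those of cxcl12b, fabp11a, rtn4rl2a, itga1 and cadm1a. The Nogo receptor relative rtn4rl2a had 408 CPM, against 2.15 CPM at initiation, with 20.8 CPM in pericyte-like barcodes at maturation. The collagen-binding integrin itga1 had 513 CPM, against 4 UMIs in the members at initiation, and endothelial barcodes had 267 CPM at maturation. fabp11a reached 544 CPM, which was 52.7% of its level in free RNA. At establishment the secreted protein gene crispld2 had 13.1 CPM, against 249 CPM at initiation, and at maturation 846 CPM. The other 4 lowest at establishment were the globins hbbe1.1, hbae1.1 and hbaa2 and the spectrin sptbn1. Of the 5 highest, ccr9a had all of its UMIs in 1 member and zgc:153704 60.7% in a single member. The muscle genes mb and cmlc1 were 2 of the others. The last was gch2, a GTP cyclohydrolase of pteridine synthesis, with 440 CPM, against 17.2 CPM, in 16 of 28 members.

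Markers of other cells were measured as whole lists. The 13 measured cardiomyocyte genes summed to 187, 1969, 2626 and 4756 CPM in members in the order of stages, against 10223, 37126, 29396 and 38891 CPM in free RNA. myl7 in members was 1.62%, 5.27%, 9.91% and 13.4% of its level in free RNA. The cardiomyocyte level of members was thus higher at each later stage and under that of free RNA in each library. Whether it bears on the muscle genes named above was not tested. Red blood cell genes summed to 40156, 63334, 10294 and 154 CPM, and 4, 1, 1 and 0 members had at least 20% globin UMIs. Endothelial genes summed to 63.4, 30.5, 70.5 and 259 CPM, with cdh5, spock3, aqp8a.1 and f8 at 0 by the rule and pecam1 at 0 in all 4 libraries. Leukocyte genes summed to 41.9, 144, 26.2 and 124 CPM, and neural and glial genes to 8.71 CPM or less. Other lists were higher. Fibroblast markers, which include col1a1a and col1a2, summed to 1087, 871, 1205 and 1032 CPM, against 65.3, 106, 451 and 281 CPM in free RNA. Epicardial markers summed to 979, 1189, 1691 and 247 CPM, against 766, 1136, 3427 and 1315 CPM. Thrombocyte markers, which include fn1b and thbs1b, summed to 525, 322, 679 and 902 CPM, against 125, 108, 314 and 158 CPM.

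The heat shock gene hsp70l, a response to stress and to cell dissociation, stood at 526 CPM at initiation, 1969 CPM at establishment, 423 CPM at expansion and 9753 CPM at maturation in members, against 862, 2864, 3223 and 8683 CPM in other passing barcodes. Its summed level was highest at maturation, in members and in other barcodes. The early response gene fosab had 1481, 1390, 1318 and 3021 CPM. Whether handling bears on the genes higher at maturation was not tested. The 10 proliferation genes summed to 226, 52.3, 36.3 and 67.9 CPM in members in the order of stages, against 136, 96.8, 64.6 and 39.2 CPM in other passing barcodes. A UMI of mki67 or top2a was found at 2500 UMIs per barcode in 5 of 93 members at initiation (5.38%, 1.77 to 12.1%) and in none at the other stages. This allows up to 12.3% at establishment, 4.45% at expansion and 11.6% at maturation. Endothelial barcodes had 0.799% at initiation, 0.260% at establishment and 0.165% at expansion.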

How the data were processed

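Single-cell RNA was sequenced with a droplet 3′ kit from ventricle pools digested with collagenase and then TrypLE. The deposited matrices hold counts of UMIs per gene and barcode, which the authors made with Cell Ranger on GRCz11 and the Lawson zebrafish annotation. The methods and the submitters' processing notes give Cell Ranger 6.1.2 and Seurat 4, and the file headers 7.1.0. Whether intronic reads were counted is not stated, and it would change the counts.

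Members and gene lists were chosen with earlier results of these data known. The files hold 36351 genes, 1 per row, and 458 rows bear a gene name that stands on more than 1 row. Such rows were kept apart and left out of the lists. Counts of members were summed per library and scaled to CPM. A fold was counted past 2 among genes with at least 50 UMIs in the members compared, with a floor of 3 UMIs for a group with fewer. Genes named were the gate genes, the most abundant or most changed of 23 lists, the 15 with the highest least ratio over other barcodes, and the 10 (expansion) or 5 (other stages) highest and lowest ratios over initiation. Genes of the split by cxcl12b and of the removed barcodes were chosen after their values were seen. Shares of cells with a UMI were computed after thinning each barcode to 2500 UMIs, and every member had that depth. Intervals were Clopper-Pearson for shares, exact Poisson for levels and exact conditional binomial for ratios, and they cover counting error only. Doublets were not removed, and alternatives without possible doublets were run. Other alternatives changed the gate, the depth and mitochondrial limits, the exclusion limits, the scaling and the minimum of UMIs. The ratio procedure was tested on simulated data. Python 3.11.15, numpy 2.4.6, scipy 1.17.1, pandas 2.3.3 and matplotlib 3.10.9 were used. Sequences and coordinates are not used here.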

Additional observations from a re-analysis of the deposited data

How the results depend on the processing

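The share at initiation was 1.40% and moved beyond its interval to 1.11% with a gate of 16 UMIs, 1.07% with a gate of 0.2% of the barcode's UMIs, 3.14% without red blood cells, 2.51% with under 20 UMIs of titin and myh7l, and 4.23% with no such limit. At expansion (0.742%) it moved to 0.559% with a gate of 16 UMIs, 0.925% with a gate of 5, 1.52% with under 20 UMIs of titin and myh7l, 1.91% with no such limit, and 1.04% with up to 1 endothelial UMI. At maturation (0.475%) it moved to 0.253% with a gate of 16 UMIs and 0.791% with a gate of 5. Leaving out possible doublets as first defined gave 0.0150, 0.0173, 0.0550 and 0% in the order of stages, because that definition counts 2 or more pericyte markers, which 89 of 93, 27 of 28, 74 of 81 and 24 of 30 members carry. That definition also counted thrombocyte markers, of which 16, 3, 11 and 8 members carried 2 or more. With only the pericyte criterion dropped, 73, 25, 69 and 21 members stayed. By depth, leukocyte and endothelial markers alone, 85, 26, 80 and 29 members stayed. Genes at least 2-fold higher at expansion (169 of 3343 measured) numbered 13 of 108 without possible doublets. They numbered 513 of 6048 with a minimum of 20 UMIs and 39 of 991 with 200. Genes lower (213 of 3343) numbered 44 of 108 without possible doublets and 376 of 6464 with no titin limit. They numbered 620 of 6048 with a minimum of 20 UMIs and 55 of 991 with 200. The number of genes measured thus moved with each of these settings, and the minimum sets it directly. The doublet setting compared 6 members at expansion with 1 at initiation. Beyond this the cause of these moves was not tested. The level of elnb ranged between 0 and 1616 CPM at initiation and 0 and 133 CPM at establishment. It ranged between 118 and 739 CPM at expansion, and 10.2 and 37.4 CPM at maturation. None of these settings lifted the endothelial limit in full. The values of 0 came from the first doublet definition, which left 1 member at initiation and 1 at establishment. The limits on titin, the limit of 1 endothelial UMI, the removal of globin-rich members and the narrower doublet definition were chosen after seeing the data. No paired analysis was possible because each stage has 1 library.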
